A study of Mus musculus with 8 samples.

Results

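Matrix remodelling genes were taken as 9 named genes of the deposited count table: the tissue inhibitors of metalloproteinases Timp1, Timp2 and Timp3, the urokinase gene Plau and its receptor gene Plaur, the lysyl oxidase genes Lox and Loxl2, the membrane metalloproteinase gene Mmp14, and the fibronectin gene Fn1. They were found by gene name among 56748 genes, and 9 of the 9 were among the 14279 genes with enough counts to be tested. RNA sequencing had been performed on mouse primary hepatocytes held for 24 h on a hydrogel of 1 kPa (soft) or of 20 kPa (stiff), with 2 libraries in each of 4 groups. The comparisons ask how the stiffness of the substrate and the loss of the transcriptional coactivators YAP and TAZ bear on these genes.

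All groups came from C57BL/6J mice with floxed alleles of both genes (Yap fl/fl; Taz fl/fl), which were 7 to 8 weeks old when the virus was given. Knockout (Yap/TazHepKO) mice had received AAV8-TBG-Cre and wild-type mice AAV8-TBG-Null, so that both genotypes carried the floxed alleles and had been exposed to a virus. The study's methods also list a ROSA26-LSL-tdTomato reporter that Cre switches on. The TBG promoter confines Cre to hepatocytes, and other liver cells in the culture would keep both genes. Hepatocytes were isolated 10 days after the injection and placed on collagen-coated polyacrylamide gels. The labels do not say whether the 2 libraries of a group came from separate mice, and p-values then measure only the spread between these libraries, which may be technical. The sources used here disagree on the sex of the mice, which the study's methods give as male. Xist was counted in every library (4818 to 8443 counts), and the Y chromosome genes Ddx3y, Eif2s3y, Kdm5d and Uty were at 0 in all 8. This is the pattern of female cells.

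Library totals ran from 18324083 to 26442310 counts. Levels are given as normalized CPM, counts scaled to the library's total over tested genes by the TMM method. A gene at 0 could still hold up to 3 counts (95% confidence), which equals 0.116 to 0.167 CPM. This limit covers counting error only. The targeted genes were lower in the knockout on both hydrogels, with a log2 fold change of -1.68 on soft and -2.20 on stiff hydrogel for Yap1 and of -1.37 and -2.13 for Wwtr1, which encodes TAZ. The 10 hepatocyte markers together held 64700 to 96000 CPM in each library, most of it Alb, the albumin gene. A gene was called changed at a Benjamini-Hochberg adjusted p under 0.05 by edgeR's quasi-likelihood test over all tested genes, with an absolute log2 fold change over 0.5.

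The extracellular matrix is built, cross-linked and cut by enzymes whose activity is held in check by dedicated inhibitors. TIMP proteins bind the active site of matrix metalloproteinases, urokinase turns plasminogen into the broad protease plasmin at the cell surface where its receptor holds it, and lysyl oxidases cross-link collagen and elastin. In the injured liver, stellate cells and myofibroblasts are the best known source of many of these products, while hepatocytes secrete plasma fibronectin, plasminogen and several protease inhibitors.

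YAP and TAZ reach DNA through TEAD factors, whose sites often lie beside AP-1 sites, so the promoter windows of the members were searched for the TEAD core GGAATG and for the AP-1 core TGANTCA on both strands. RefSeq windows (GRCm38.p6) from 250 bases before to 50 after the start were held for 5 of the 9 members, namely Plaur, Timp1, Timp2, Timp3 and Mmp14. The 3 windows below belong to members called higher on stiff hydrogel in wild-type cells, and they are shown because they differ in these letters. They are the Plaur window at chr7:24462233-24462532 (plus strand), the Timp1 window at chrX:20869916-20870215 (plus strand) and the Timp2 window at chr11:118355362-118355661 (minus strand), each written 5′ to 3′ on the gene's strand with matches in capitals.
Plaur: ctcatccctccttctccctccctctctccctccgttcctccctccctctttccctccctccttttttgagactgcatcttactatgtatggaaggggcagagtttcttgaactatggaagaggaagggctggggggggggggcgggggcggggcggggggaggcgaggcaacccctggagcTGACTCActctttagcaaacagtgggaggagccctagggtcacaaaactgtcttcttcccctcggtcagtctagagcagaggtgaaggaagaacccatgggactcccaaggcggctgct
Timp1: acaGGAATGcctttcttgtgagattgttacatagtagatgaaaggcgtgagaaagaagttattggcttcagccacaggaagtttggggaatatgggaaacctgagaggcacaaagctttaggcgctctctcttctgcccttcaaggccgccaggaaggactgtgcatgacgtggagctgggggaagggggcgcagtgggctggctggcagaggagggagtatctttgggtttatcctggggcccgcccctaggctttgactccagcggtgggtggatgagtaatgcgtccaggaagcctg
Timp2: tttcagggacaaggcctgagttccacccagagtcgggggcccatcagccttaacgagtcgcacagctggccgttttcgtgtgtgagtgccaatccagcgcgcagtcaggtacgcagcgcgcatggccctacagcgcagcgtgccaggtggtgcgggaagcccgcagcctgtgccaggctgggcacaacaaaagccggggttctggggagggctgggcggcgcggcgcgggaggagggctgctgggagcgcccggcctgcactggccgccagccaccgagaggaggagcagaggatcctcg
The Plaur window held the AP-1 letters once, from position -69 relative to the start, and the same letters read as a match on the other strand. The Timp1 window held the TEAD letters once, from position -247. Neither set of letters stood in the windows of Timp2, Timp3 or Mmp14. Across 32851 RefSeq windows of the same length, 14.7% held GGAATG and 7.81% held TGANTCA. A match is a description of these letters and not of binding. No window was held for Plau, Lox, Loxl2 or Fn1.

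The members spanned a wide range of levels. Per kilobase of the deposited gene length, and averaged over the 8 libraries, Fn1 stood at 161 CPM per kilobase, above Plaur at 26.2, Mmp14 at 25.1 and Timp1 at 8.37. Loxl2 at 1.02, Plau at 0.898 and Timp2 at 0.877 formed a lower tier, and Timp3 at 0.242 and Lox at 0.202 CPM per kilobase were the lowest. Fn1 ranked between the 97.3rd and the 98.7th percentile of all tested genes in every library, whereas Lox ranged from the 1.55th to the 18.8th. Some neighbours in this order were not separated by their spread. In wild-type cells on soft hydrogel Plau (0.697 ± 0.189 CPM per kilobase, SD, n = 2), Timp2 (0.600 ± 0.079) and Loxl2 (0.598 ± 0.031) lay within one another's spread.

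The order itself differed between groups, among others for the urokinase receptor and the membrane protease. On soft hydrogel Mmp14 (29.1 ± 1.79 CPM per kilobase in wild-type cells) lay above Plaur (22.3 ± 1.52), and on stiff hydrogel Plaur (57.3 ± 0.527) lay above Mmp14 (29.5 ± 0.650) in wild-type cells. In knockout cells Mmp14 lay above Plaur on both hydrogels, at 20.6 against 13.2 CPM per kilobase on soft and 21.02 against 12.1 on stiff.

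**Figure D1:**
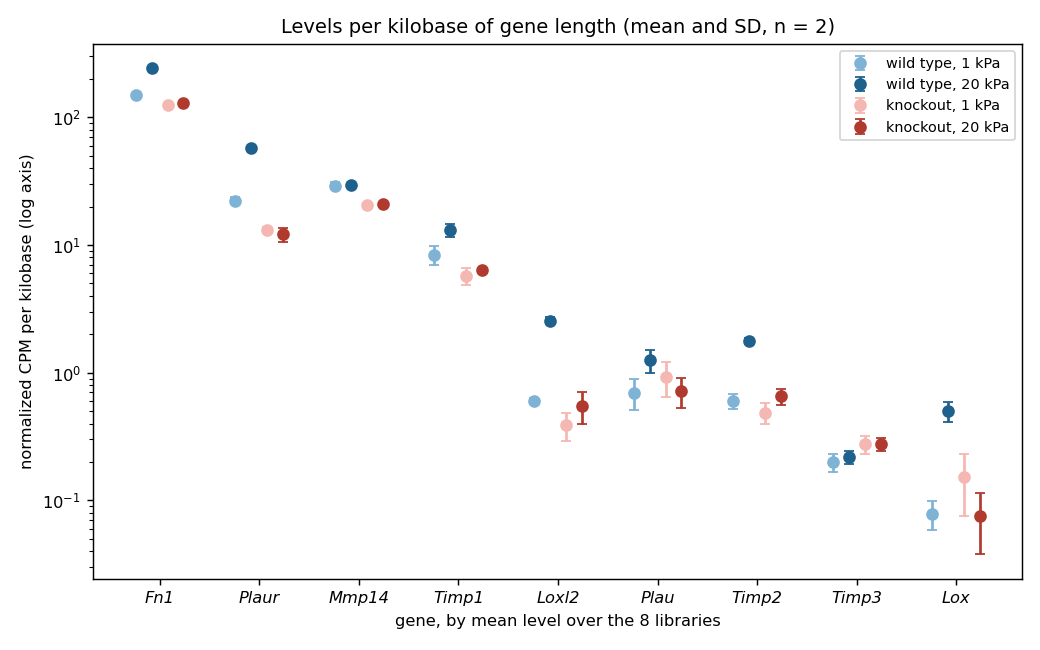
Normalized CPM per kilobase of deposited gene length (log axis) for the 9 members, ordered by their mean over 8 libraries, with points for the mean of each group and bars for the SD (n = 2). Fn1 lies highest in each group, and in wild-type cells on stiff hydrogel Plaur lies above Mmp14.

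In wild-type hepatocytes 7 of the 9 members rose on stiff hydrogel and none fell, against 10.0% of all tested genes called higher, 9.26% called lower and 19.3% called either way. The largest increases were those of the lysyl oxidases Lox and Loxl2, followed by Timp2 and Plaur, and smaller ones were seen for Plau, Fn1 and Timp1. Timp3 and Mmp14 were not called. The median log2 fold change of the members was 0.82, and that of all tested genes was -0.0087. In bulk RNA, fewer cells of a type and less RNA per cell cannot be told apart.

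In knockout hepatocytes 0 of the 9 members passed the same thresholds by edgeR or by DESeq2. In edgeR 0.0210% of tested genes did (3 genes, 0.0140% higher and 0.00700% lower). The members' log2 fold changes ran from -0.97 for Lox to 0.48 for Loxl2, with a median of 0.031, their adjusted p-values ran from 0.658 to 0.997, and 0 of the 9 had an unadjusted p under 0.05. The difference between the genotypes was tested by itself, as the stiffness effect in knockout cells minus that in wild-type cells. It was negative and called for 5 of the 9 members (Timp2, Plaur, Lox, Loxl2 and Fn1), against 8.21% of tested genes called in that direction, 8.64% in the other and 16.8% in either.

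Groups that did not overlap are common with 2 libraries each. The wild-type soft and stiff groups did not overlap in 7 of the 9 members, and in 68.9% of all tested genes.

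**Figure D2:**
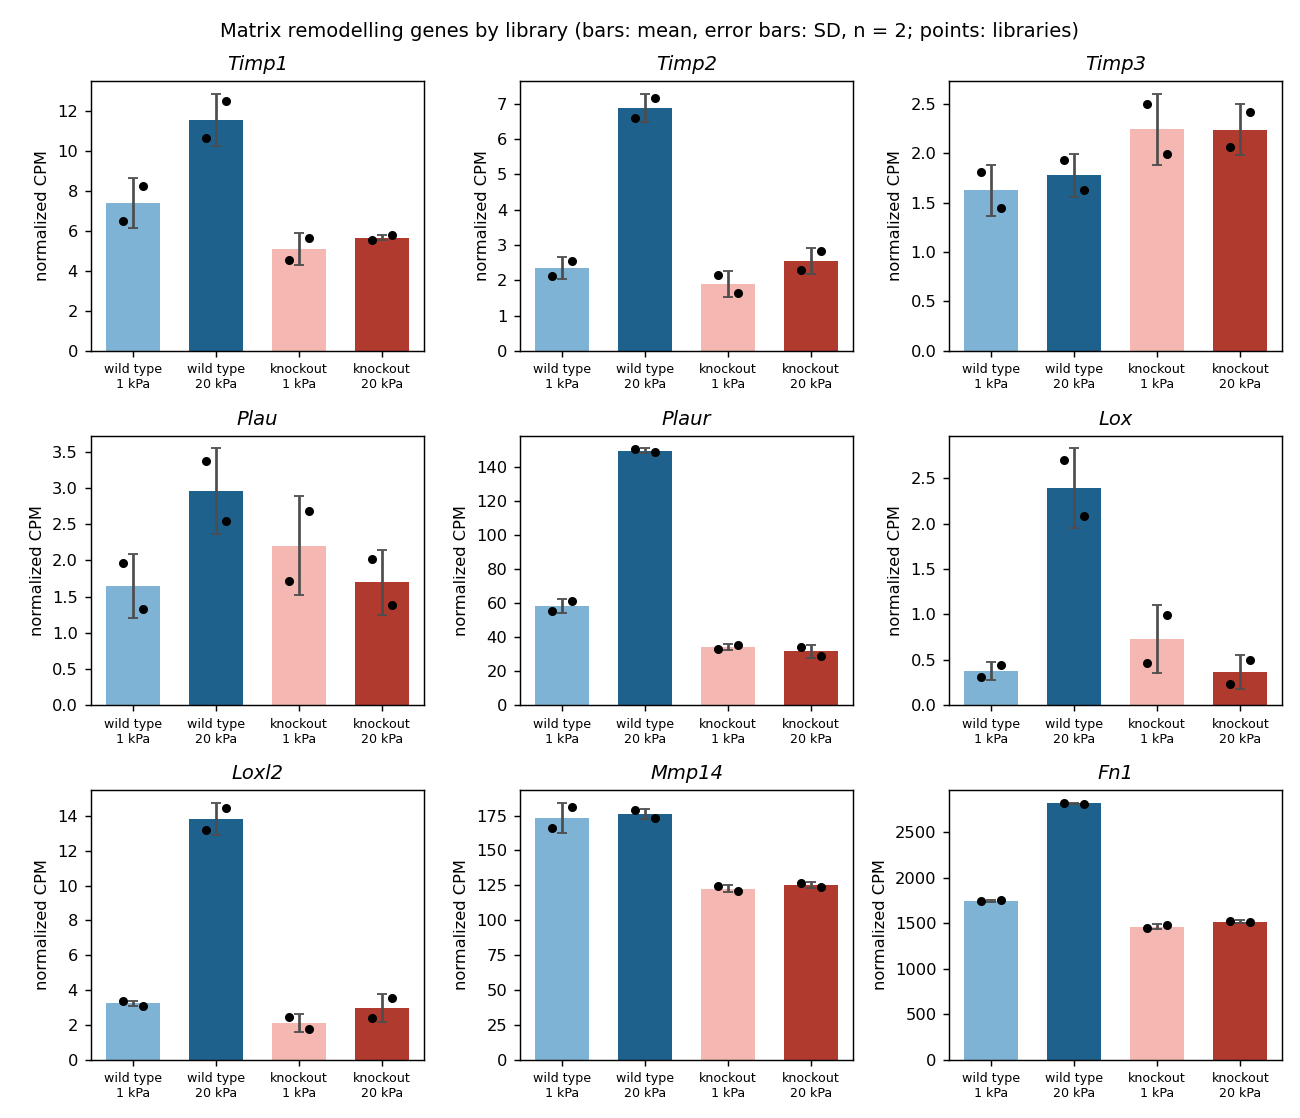
Normalized CPM of each member by group, with bars for the mean, error bars for the SD (n = 2) and points for single libraries, on an axis from 0 that differs between genes. Both wild-type libraries on stiff hydrogel stand above the other 6 libraries for Timp1, Timp2, Plaur, Lox, Loxl2 and Fn1, and not for Timp3, Plau or Mmp14. How many of all tested genes show this pattern was not counted.

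Timp1 (ENSMUSG00000001131, deposited position X:20736405-20740974, plus strand) encodes a secreted inhibitor that is widely used as a marker of liver fibrosis. It measured 6.51 and 8.28 CPM in wild-type cells on soft hydrogel, 10.7 and 12.5 on stiff hydrogel, 4.53 and 5.67 in knockout cells on soft hydrogel, and 5.57 and 5.78 on stiff hydrogel. The wild-type stiff libraries were the highest and the knockout libraries the lowest on either hydrogel. In wild-type cells it rose on stiff hydrogel by a log2 fold change of 0.66 (SE 0.162, edgeR adjusted p = 0.00313). In knockout cells the log2 fold change was 0.16 (95% interval -0.21 to 0.54), and the difference between genotypes, -0.49, did not pass (adjusted p = 0.139, interval -1.003 to 0.014). The wild-type call rested on single libraries, since without soft replicate 1 the log2 fold change was 0.49 (adjusted p = 0.0557) and without stiff replicate 2 it was 0.54 (adjusted p = 0.0502), within a range of adjusted p from 0.000249 to 0.0557 over 16 alternatives. Timp1 lies within the span of Syn1 on the other strand (mean 19 counts), with 0 exon bases shared between them in GENCODE M21.

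Timp2 (ENSMUSG00000017466, deposited position 11:118191895-118246566, minus strand) encodes an inhibitor that also takes part in the activation of pro-MMP2 by the Mmp14 product. Its level in wild-type cells was 2.12 and 2.55 CPM on soft hydrogel and 6.61 and 7.16 on stiff hydrogel. The knockout libraries measured 2.15 and 1.64 CPM on soft hydrogel and 2.30 and 2.82 on stiff hydrogel. The wild-type stiff libraries thus stood apart from the other 6, which ranged within a narrow band. The log2 fold change on stiff hydrogel was 1.57 in wild-type cells (SE 0.217, edgeR adjusted p = 1.12e-05) and 0.42 in knockout cells (interval -0.10 to 0.93), with a difference of -1.15 (SE 0.328, adjusted p = 0.0125). That difference was no longer called without knockout soft replicate 1 (-0.94, adjusted p = 0.0901, within 0.00487 to 0.0901 over 15 alternatives).

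Timp3 (ENSMUSG00000020044, deposited position 10:86136236-86185370, plus strand), whose product stays bound to the matrix, was not called in any of the comparisons. It measured 1.81 and 1.44 CPM in the wild-type soft group, 1.93 and 1.63 in the wild-type stiff group, 2.50 and 1.99 in the knockout soft group and 2.06 and 2.42 in the knockout stiff group. The soft and stiff libraries overlapped in both genotypes, and each knockout group lay above the wild-type group on the same hydrogel. The genotypes also did not overlap in 56.2% of tested genes on soft and in 74.5% on stiff hydrogel. The stiffness effect in wild-type cells was a log2 fold change of 0.11 (interval -0.51 to 0.73), an interval that still holds changes as large as that of Timp1. Timp3 lies within Syn3 on the other strand (mean 36.9 counts, against 42.8 for Timp3), and 1733 of its 8144 exon bases (21.3%) are also exon bases of Syn3 in GENCODE M21. Reads in that stretch could be assigned only by strand. The study's methods name dUTP in cDNA synthesis, which marks strand, but not whether the counting used it.

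Plau (ENSMUSG00000021822, deposited position 14:20886728-20893453, plus strand) encodes urokinase, the protease that activates plasminogen. Counts were low, at 24 to 70 per library. It measured 1.96 and 1.33 CPM in wild-type cells on soft hydrogel, 3.38 and 2.54 on stiff hydrogel, and 1.72 and 2.69 in knockout cells on soft hydrogel against 2.01 and 1.38 on stiff hydrogel. The wild-type groups did not overlap, whereas the knockout groups did, and the higher knockout soft library lay above the lower wild-type stiff library. The rise in wild-type cells was 0.82 on the log2 scale (SE 0.313, edgeR adjusted p = 0.0446), and in knockout cells the value was -0.35 (interval -1.03 to 0.33). The wild-type call was lost in 5 of 16 alternatives, among them DESeq2 (adjusted p = 0.105) and the fits without wild-type soft replicate 2 (log2 fold change 0.60, adjusted p = 0.222), stiff replicate 1 (0.60, adjusted p = 0.279) or stiff replicate 2 (1.01, adjusted p = 0.0507), over a range of adjusted p from 0.0132 to 0.279. The difference between genotypes, -1.17, missed the threshold (adjusted p = 0.0595) and passed it in 4 of 15 alternatives (0.0178 to 0.247 over all 15), namely with no filter on low counts and without wild-type soft replicate 1 (-1.51), knockout soft replicate 1 (-1.48) or knockout stiff replicate 1 (-1.47).

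Plaur (ENSMUSG00000046223, deposited position 7:24161909-24175393, plus strand) encodes the urokinase receptor, which holds the protease at the cell surface. It was one of the best measured members, with 586 to 3129 counts per library. The wild-type libraries held 55.5 and 61.2 CPM on soft hydrogel and 151 and 149 on stiff hydrogel, and the knockout libraries held 33.3 and 35.7 on soft hydrogel and 34.6 and 29.0 on stiff hydrogel. The wild-type stiff libraries were far above all others and every knockout library lay below every wild-type library. The log2 fold change on stiff hydrogel was 1.36 in wild-type cells (SE 0.0695, edgeR adjusted p = 1.9e-11), a 2.58-fold rise, and -0.12 in knockout cells (interval -0.28 to 0.052). The difference was -1.48 (SE 0.105, adjusted p = 5.25e-09), and it stayed between -1.62 and -1.37 and called in each of 15 alternatives. This is the gene whose window above held the AP-1 letters, and its promoter was not measured here.

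Lox (ENSMUSG00000024529, deposited position 18:52649139-52662939, minus strand) encodes the founding member of the lysyl oxidases, copper enzymes that start the cross-links of collagen and elastin. Averaged over the 8 libraries it was the least abundant member. In wild-type cells on stiff hydrogel it lay above Timp3, at 0.501 against 0.218 CPM per kilobase. Wild-type cells gave 8 and 8 counts on soft hydrogel (0.308 and 0.444 CPM) and 56 and 41 on stiff hydrogel (2.70 and 2.08 CPM). Knockout cells gave 12 and 20 counts on soft hydrogel (0.468 and 0.995 CPM) and 5 and 10 on stiff hydrogel (0.234 and 0.494 CPM). The wild-type stiff libraries stood above the other 6, and the knockout soft and stiff libraries overlapped. Its rise in wild-type cells, a log2 fold change of 2.69, was the largest of the members and the least precise (SE 0.485, edgeR adjusted p = 0.000193). In knockout cells the value was -0.97 with an interval from -2.15 to 0.22, and the difference between genotypes was -3.65 (SE 0.746, adjusted p = 0.000994), called in each of the 14 alternatives that kept the gene. A filter of at least 10 counts in every library removed it.

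Loxl2 (ENSMUSG00000034205, deposited position 14:69846517-69933283, plus strand) encodes a secreted paralog that cross-links collagen IV and fibrillar collagen. It measured 3.35 and 3.11 CPM in the wild-type soft group, 13.2 and 14.5 in the wild-type stiff group, 2.46 and 1.74 in the knockout soft group and 2.39 and 3.56 in the knockout stiff group. The wild-type stiff libraries again stood alone, and the knockout groups overlapped each other. The rise in wild-type cells was 2.09 on the log2 scale (SE 0.194, edgeR adjusted p = 8.04e-08), a 4.26-fold change. In knockout cells the value was 0.48 (interval -0.025 to 0.98, adjusted p = 0.658), and the difference was -1.61 (SE 0.31, adjusted p = 0.00062), called in each of 15 alternatives. In the reference transcripts 44.9% of the 64-base windows of Loxl2 occur in another gene, nearly all of them in Gm21451 (0 to 7 counts), so the counts are uncertain to the extent that shared reads were split or dropped.

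Mmp14 (ENSMUSG00000000957, deposited position 14:54669069-54682821, plus strand) encodes MT1-MMP, a protease anchored in the cell membrane that cuts collagen and activates pro-MMP2. It was well measured, at 2429 to 4308 counts per library, with 166 and 181 CPM in the wild-type soft group, 179 and 173 in the wild-type stiff group, 124 and 121 in the knockout soft group and 127 and 124 in the knockout stiff group. Libraries on soft and stiff hydrogel overlapped in both genotypes, while all 4 knockout libraries lay below all 4 wild-type libraries. The stiffness effect was 0.023 in wild-type cells (interval -0.083 to 0.13) and 0.031 in knockout cells (interval -0.078 to 0.14). The wild-type interval lies below the wild-type estimates of the 7 members called in that comparison. An unnamed gene on the same strand (ENSMUSG00000120849, mean 58.1 counts) overlaps 297 bases of Mmp14.

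Fn1 (ENSMUSG00000026193, deposited position 1:71624679-71692359, minus strand) encodes fibronectin, a matrix and plasma glycoprotein that hepatocytes secrete in large amounts. The wild-type libraries measured 1740.2 and 1752 CPM on soft hydrogel and 2822 and 2813 on stiff hydrogel, and the knockout libraries 1444 and 1483 on soft hydrogel and 1529 and 1509 on stiff hydrogel. The 2 libraries of each group lay close together, and all 4 groups were separate. The rise in wild-type cells was 0.69 on the log2 scale (SE 0.0286, edgeR adjusted p = 1.24e-12), and the value in knockout cells was 0.054 (interval -0.0060 to 0.11, adjusted p = 0.676). The difference between genotypes was -0.64 (SE 0.0403, adjusted p = 1.01e-09).

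**Figure D3:**
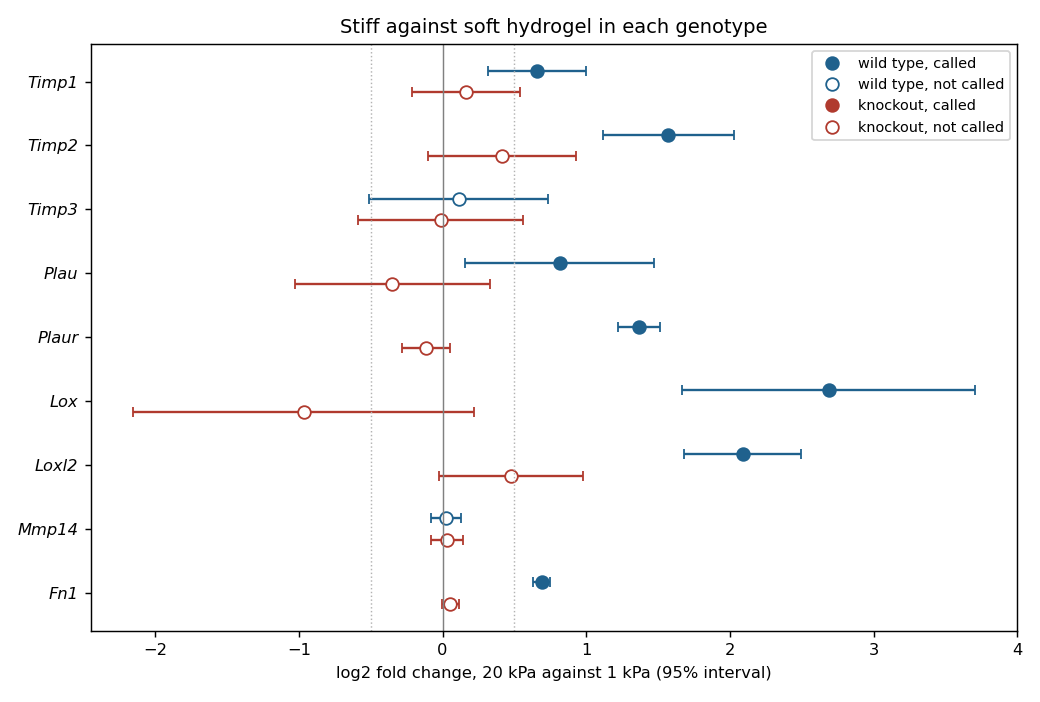
Log2 fold change of each member on stiff (20 kPa) against soft (1 kPa) hydrogel in wild-type and knockout cells, with 95% intervals, filled where called and open where not, and dotted lines at the fold threshold of 0.5. In wild-type cells 7 of the 9 points are filled and to the right, and in knockout cells 0 are, with the widest interval for Lox.

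Knockout against wild-type cells on the same hydrogel gave a different count on each substrate. On soft hydrogel 2 of the 9 members were lower (4.65% of tested genes were called lower, 2.02% higher and 6.67% either way), and on stiff hydrogel 7 of the 9 were lower (15.0% called lower, 13.7% higher and 28.7% either way). None was called higher on either hydrogel. The median log2 fold change of the members was -0.27 on soft and -1.03 on stiff hydrogel, against -0.00031 and 0.011 for all tested genes. The wild-type stiff libraries enter both this comparison and the stiffness comparison above, so the counts on stiff hydrogel are not independent of each other.

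The members lower on soft hydrogel were Timp1 and Plaur. Plaur fell in the knockout by 0.76 on the log2 scale (SE 0.0752, edgeR adjusted p = 5.88e-07), and this call was kept in each of 16 alternatives. Timp1 fell by 0.53 (SE 0.174, adjusted p = 0.0405), but lost the call in 6 of 16 alternatives, among them DESeq2 (adjusted p = 0.102), library size scaling (adjusted p = 0.0611), and the fits without wild-type soft replicate 2 (-0.36, adjusted p = 0.273), wild-type stiff replicate 1 (adjusted p = 0.0501) or knockout soft replicate 1 (-0.37, adjusted p = 0.319), over a range from 0.0201 to 0.319. Mmp14 and Fn1 had small adjusted p-values but lay under the fold threshold, at -0.499 (adjusted p = 8.64e-07) and -0.25 (adjusted p = 2.64e-06). Mmp14 crossed that threshold in 7 of 16 alternatives, with values from -0.558 to -0.436, among them the fits without wild-type soft replicate 1, wild-type stiff replicate 2, knockout soft replicate 1 or either knockout stiff library. Loxl2 at -0.61 (adjusted p = 0.0835), Lox at 0.95 (0.273), Timp3 at 0.45 (0.304), Plau at 0.37 (0.484) and Timp2 at -0.27 (0.503) were not called.

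On stiff hydrogel the knockout cells had less RNA of 7 members. Lox fell by 2.71 on the log2 scale (SE 0.49, edgeR adjusted p = 0.000139), Plaur by 2.24 (SE 0.074, adjusted p = 1.92e-14) and Loxl2 by 2.22 (SE 0.198, adjusted p = 2.67e-08). Timp2 fell by 1.43 (adjusted p = 2.01e-05), Timp1 by 1.03 (adjusted p = 4.97e-05), Fn1 by 0.89 (adjusted p = 1.33e-14) and Plau by 0.80 (adjusted p = 0.0421). The Plau call was lost in 5 of 16 alternatives, among them DESeq2 (adjusted p = 0.1), library size scaling (0.0578) and the fits without wild-type stiff replicate 1 (-0.59, adjusted p = 0.255) or knockout stiff replicate 2 (-0.57, adjusted p = 0.228), over a range from 0.0129 to 0.255. Mmp14, at -0.49 (SE 0.0512, adjusted p = 2.23e-07), again lay just under the fold threshold and crossed it in 5 of 16 alternatives (-0.523 to -0.434 over all), including those without either wild-type soft library, wild-type stiff replicate 2 or knockout stiff replicate 1. Timp3 was 0.33 (interval -0.27 to 0.93). All 9 members separated the genotypes on stiff hydrogel without overlap, as did 74.5% of tested genes.

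**Figure D4:**
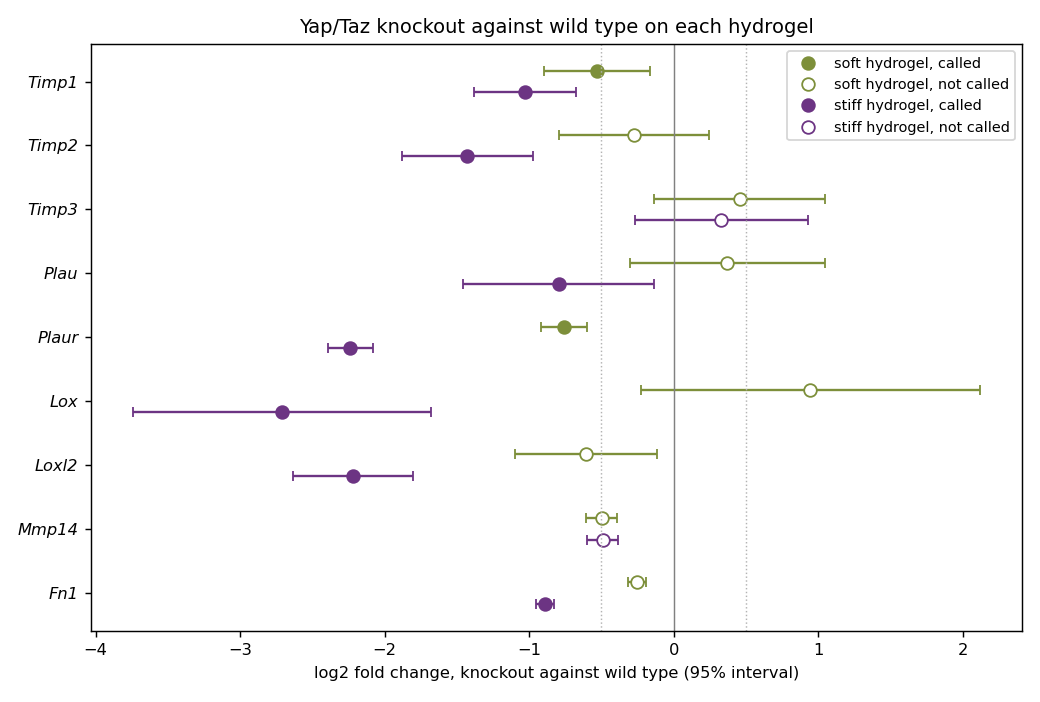
Log2 fold change of each member in knockout against wild-type cells on soft and on stiff hydrogel, with 95% intervals, filled where called and open where not, and dotted lines at the fold threshold of 0.5. Timp1 and Plaur are filled on soft hydrogel, 7 members are filled on stiff hydrogel, and Mmp14 lies at about the same place, by the dotted line, on both.

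Markers of other liver cells moved with the groups. The summed level of 10 stellate cell and fibroblast markers was 34.8 to 35.0 CPM in wild-type cells on soft and 22.3 to 23.5 on stiff hydrogel, 47.3 to 48.6 in the knockout soft libraries and 49.3 to 52.7 in the knockout stiff libraries. Of these markers, 4 were called lower and 1 (Col1a1, 0.78 on the log2 scale) higher on stiff hydrogel in wild-type cells. Lrat had too few counts to be tested, at 0 to 4 per library. The 8 endothelial markers summed to 54.9 to 60.6, 39.3 to 39.7, 73.3 to 74.5 and 74.4 to 78.6 CPM in the same order, and the 8 Kupffer cell and macrophage markers to 79.8 to 83.8, 55.1 to 61.7, 114 to 115 and 117 to 118 CPM. The stellate, endothelial and macrophage sums were lowest in the wild-type stiff libraries. The 7 cholangiocyte markers summed to 571 to 602, 622 to 626, 365 to 367 and 341 to 351 CPM, most of it from Spp1, with Cftr at 0 in all libraries. Of the 5 of them that were tested, 1 was called higher on stiff hydrogel in wild-type cells. This was Krt19, a keratin gene of bile duct cells, which had 47 and 44 counts on soft and 436 and 396 on stiff hydrogel in wild-type cells (log2 fold change 3.30), and 11 and 17 on soft and 15 and 14 on stiff hydrogel in knockout cells (0.18). Leukocyte markers stayed at or below 2.88 CPM and mesothelial markers at or below 0.468 CPM in every library. Of the 10 hepatocyte markers, 4 were called lower and 0 higher on stiff hydrogel in wild-type cells, among them Hnf4a (-0.98) and Asgr1 (-0.82). In the knockout 2 were called lower and 0 higher on soft hydrogel, and 2 lower and 3 higher on stiff hydrogel, where Alb was -0.66 and Hnf4a 1.17. The part of these shifts in the members' values was not tested.

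The wider set of matrix enzymes did not move one way. A list of 79 related genes held 57 that were tested. In wild-type cells 10 of them rose and 8 fell on stiff hydrogel (31.6% called), with a median log2 fold change of -0.12. Of all tested genes, 10.0% were called higher, 9.26% lower and 19.3% either way. The counts by list below stand against the same shares. On stiff hydrogel in knockout cells 0 of the 57 were called by edgeR or by DESeq2, against 0.0210% of all tested genes in edgeR. Their values ran from -0.53 to 0.70, and 6 had an unadjusted p under 0.05 in edgeR. The difference between genotypes was called for 16 (28.1%, against 16.8% of all tested genes), of which 9 were positive and 7 negative. In knockout against wild-type cells, 7 were called on soft hydrogel (2 higher and 5 lower) and 24 on stiff hydrogel (11 higher and 13 lower). These were 12.3% and 42.1% of the 57, against 6.67% and 28.7% of all tested genes. The other 22 had at most 13 counts in any library. They include the gelatinase genes Mmp2 (at most 5 counts) and Mmp9 (at most 12), Timp4 (at most 1), and the Lox paralogs Loxl1 (at most 6) and Loxl3 (at most 10).

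Among the other metalloproteinases, 1 of 7 tested rose and 3 fell. The membrane-type gene Mmp24 measured 3.74 and 4.89 CPM on soft and 12.8 and 13.6 on stiff hydrogel in wild-type cells, a rise of 1.63 on the log2 scale (edgeR adjusted p = 9.86e-07), though 13.6% of its exon bases overlap BC029722 on the other strand (mean 481 counts). The macrophage elastase gene Mmp12 fell by 0.82 (adjusted p = 0.000984), Mmp19 by 0.65 (adjusted p = 9.54e-06) and the membrane-type gene Mmp15 by 0.51 (adjusted p = 1.01e-05). The sum of the Kupffer cell and macrophage markers given above was also lower on stiff hydrogel in wild-type cells. So were 4 of the 10 hepatocyte markers, and the cell source of the Mmp12 reads was not tested. Mmp19 shares 22.3% of its exon bases with Tmem198b on the other strand (mean 84.9 counts), and Mmp15 went under the fold threshold in 3 of 16 alternatives, including those without wild-type soft replicate 1 (-0.46) or stiff replicate 2 (-0.42).

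The ADAM and ADAMTS genes, membrane sheddases and secreted proteoglycan-cutting enzymes, gave 3 rises and 1 fall among 10 tested. Adam8 went from 7.63 and 9.83 CPM to 44.6 and 45.1, a log2 fold change of 2.38 (edgeR adjusted p = 1.17e-10), and Adam15 rose by 0.96 (adjusted p = 0.000632). The other calls came from few counts and were singled out after their values were seen, namely Adam12 at 2.30 (8 and 17 counts on soft and 66 and 52 on stiff hydrogel, adjusted p = 0.000417) and Adam19 at -1.33 (22 and 19 against 9 and 6 counts, adjusted p = 0.0439).

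The plasminogen system, to which Plau and Plaur belong, held 2 falls among the 8 tested genes reported here, both of them of protease inhibitors. Serpinf2, the gene of the plasmin inhibitor alpha2-antiplasmin, went from 565 and 596 CPM to 348 and 341, a log2 fold change of -0.75 (edgeR adjusted p = 2.59e-11). Serpine2, the gene of protease nexin-1, had 29 and 22 counts on soft and 9 and 5 on stiff hydrogel (-1.73, adjusted p = 0.00253) and was also singled out after its values were seen.

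Among the other groups, the further inhibitors and activators gave 1 call in 7. This was Reck, a membrane-anchored inhibitor of metalloproteinases (0.78, edgeR adjusted p = 0.0357). Reck lost the call in 4 of 16 alternatives, namely DESeq2 (0.80, adjusted p = 0.114) and 3 fits with 1 library left out. These were without wild-type soft replicate 2 (0.54), stiff replicate 1 (0.75) or stiff replicate 2 (0.81). Of 4 tested cross-linking genes, 2 rose. Loxl4, a further lysyl oxidase, went from 31.1 and 31.2 to 79.9 and 78.2 CPM (1.34, adjusted p = 3.52e-11), and Tgm2, the tissue transglutaminase gene, rose by 0.89 (adjusted p = 7.22e-11), though 8.03% of its exon bases overlap Rprd1b on the other strand (mean 490.5 counts). Of 14 procollagen-processing genes, 2 rose. They were Bmp1, the procollagen C-proteinase gene (0.82, edgeR adjusted p = 5.21e-10), and Pcolce2, which encodes its enhancer (0.75, adjusted p = 0.0482). The Pcolce2 call was lost in 9 of 16 alternatives. These include DESeq2 (0.76, adjusted p = 0.13) and each fit without 1 of the 4 wild-type libraries (0.61 to 0.89). Of 7 cathepsins and glycosidases, Ctsl fell by 0.58 (edgeR adjusted p = 5.86e-11) and Ctss by 0.71 (adjusted p = 0.0101). The Ctss call was lost without wild-type stiff replicate 2 (-0.54). The hyaluronidase gene Hyal1, which shares 63.0% of its transcript windows with Naa80, rose by 0.60 (edgeR adjusted p = 0.04). Hyal1 lost the call in 3 of 16 alternatives. They were DESeq2 (0.61, adjusted p = 0.123) and the fits without wild-type soft replicate 2 (0.48) or stiff replicate 2 (0.43).

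**Figure D5:**
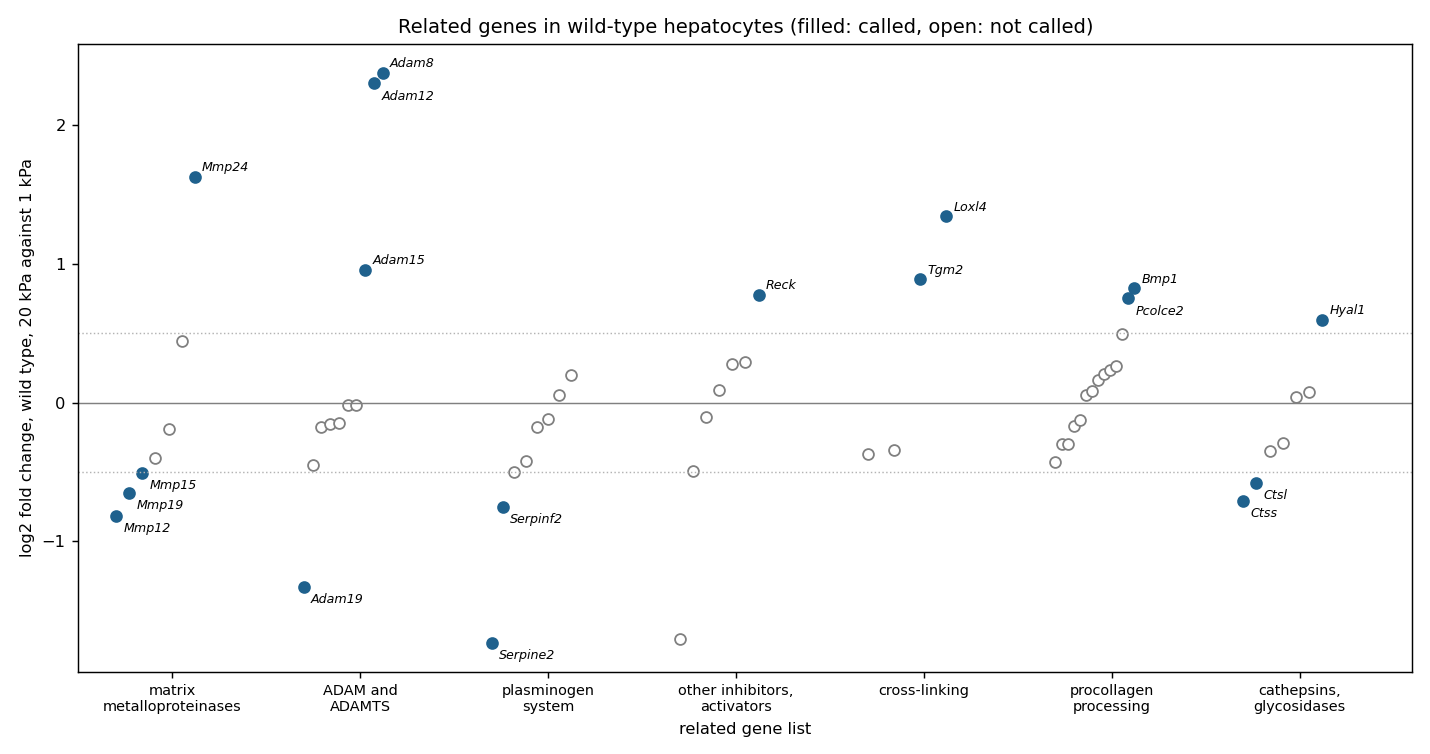
Log2 fold change on stiff against soft hydrogel in wild-type cells for the 57 tested related genes, by list, filled and named where called, with dotted lines at the fold threshold of 0.5. The filled points lie on both sides of 0 (10 above and 8 below), with Adam8 highest at 2.38 and Serpine2 lowest at -1.73.

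The genes whose log2 CPM was most like that of the members with the largest wild-type change were taken from those with a mean of at least 100 counts. For Lox these were Golm1 (Pearson r = 0.981 over the 8 libraries), Pole3 (0.978) and Rfwd3 (0.975) among 10037 genes, of which 19 reached 0.95. For Loxl2 they were Ppp2r1a (0.997), Stx6 (0.989) and Rbms2 (0.988) among 10036 genes, of which 420 reached 0.95. The 8 libraries share 4 groups, and these values describe the shape of the pattern, not its size. The wild-type log2 fold change of Golm1 was 0.22 and that of Ppp2r1a was 0.19, against 2.69 for Lox and 2.09 for Loxl2.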

How the data were processed

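Poly(A)-selected RNA of the 8 cultures was sequenced as paired-end 150 bp reads. The authors aligned reads with HISAT2 2.0.5 (submitters' processing notes, which also name mm9) and counted them with featureCounts. They deposited unnormalized counts of each library, beside the length in bases and position of each gene. The study's methods name dUTP in cDNA synthesis, but strand and multi-mapping settings of the counting are not given in the sources used here. Positions were printed as deposited: they differ from GRCm38 (GENCODE M21) for 9 of the 9 members, and the build was not settled.

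Counts were filtered (filterByExpr by group), scaled by TMM and fitted with edgeR 4.0.16 glmQLFit in R 4.3.3, with 1 term per group and all 8 libraries (residual df 4, common BCV 0.0542). Each contrast used glmQLFTest with Benjamini-Hochberg adjustment over 14279 genes. An SE is the absolute unshrunken log2 coefficient divided by the square root of F. Intervals are 95% and centred on the printed log2 fold change, which is edgeR's shrunken value. CPM used library sizes over tested genes and TMM factors (0.978 to 1.02). DESeq2 1.42.0 was an alternative, beside other scalings, filters, thresholds, a replicate block, 4-library fits and each library left out. Figures were drawn with matplotlib 3.10.9. Replicates differed beyond sampling noise in each group (chi-square per degree of freedom 2.62 to 5.45).

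The members and lists were chosen with earlier results of these data known. All 9 members are named, and of each related list up to 4 genes with the largest wild-type change among those called with a mean of at least 50 counts in wild-type libraries, plus up to 2 called against the list's direction. An item of these lists is not reported here. Likeness was given for the 2 members with the largest called wild-type change. In simulated data for the wild-type comparison (14004 genes), 76.5% of 200 genes changed by a log2 fold of 1 were recovered with 4 others called, and for the knockout comparison (14007 genes) 73.5% with 4 others. The 200 genes were drawn at random and the rest left unchanged, whereas the real wild-type comparison called 2754 genes. These shares do not give the recovery of low-count members such as Lox or Plau.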

Additional observations from a re-analysis of the deposited data

Results flagged for a closer look

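The stiffness effect differed between wild-type and knockout cells, by the test of the difference itself in edgeR, for 5 members. The log2 differences, knockout minus wild type, were -3.65 for Lox, -1.61 for Loxl2, -1.48 for Plaur, -1.15 for Timp2 and -0.64 for Fn1. Among the related genes named, the same test gave a negative difference for the proteases Adam8 (-2.14), Mmp24 (-1.39), Adam15 (-0.93) and Bmp1 (-0.78), and the cross-linking enzymes Loxl4 (-1.31) and Tgm2 (-0.78). The difference was positive for Mmp12 (0.98), Serpinf2 (0.77), Ctss (0.74), Mmp19 (0.74), Mmp15 (0.65) and Ctsl (0.53), which had fallen on stiff hydrogel in wild-type cells. The related genes were named for their called wild-type change, and the difference holds that change with the opposite sign. Their calls and signs here are therefore not independent of that choice. The differences of Adam15 (adjusted p = 0.02, up to 0.12 over 15 alternatives) and Ctss (adjusted p = 0.0478, up to 0.208) were lost in 4 and 10 of the 15 alternatives, for Adam15 those with DESeq2 or without wild-type stiff replicate 1 (-0.79), knockout soft replicate 1 (-0.75) or knockout stiff replicate 2 (-0.72). For Ctss they include DESeq2 (0.74, adjusted p = 0.144), DESeq2 size factors, no filter on low counts and the replicate block. They also include the fits without either wild-type soft library, either knockout soft library, wild-type stiff replicate 2 or knockout stiff replicate 2 (0.56 to 0.86). The call of Mmp24 was lost without knockout soft replicate 2 (-1.08) and that of Ctsl without wild-type soft replicate 1 or knockout stiff replicate 2 (0.48 and 0.49, under the fold threshold). Groups of 2 libraries cannot be searched for single libraries that stand apart.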

How the results depend on the processing

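Of the members' values under the alternatives, 657 kept their direction and their side of the threshold, 19 lost and 16 gained a call, and 14 changed sign; of the named related genes' values, 383 kept both and 37 lost the call. With no minimum fold, the related genes called were 33 of 57 for wild-type stiffness, 25 for the difference, 18 for the knockout on soft and 37 on stiff hydrogel. With a log2 fold change over 1 they were 6, 6, 2 and 12. Of all 14279 tested genes, 5859, 4192, 2624 and 7299 were called with no minimum fold, in the same order. Over a log2 fold change of 1 they were 1244, 1040, 353 and 2097. With a log2 fold change over 1, 4 members were called for wild-type stiffness and 0 for the knockout on soft hydrogel. On soft hydrogel the knockout gave 4 members with no minimum fold and 1 with DESeq2 or with library size only. With 1 library left out, the members called ranged from 5 to 7 for wild-type stiffness, 0 to 0 for knockout stiffness, 5 to 6 for the difference, 1 to 3 for the knockout on soft hydrogel (1 without wild-type soft replicate 2 or wild-type stiff replicate 1) and 6 to 8 on stiff hydrogel. The related genes called ranged from 12 to 17, 0 to 0, 12 to 14, 5 to 7 and 20 to 25 in the same order. A lone library is then assumed to vary like the other groups. In the fit of all 8 libraries, 19.3%, 0.0210%, 16.8%, 6.67% and 28.7% of tested genes were called, in the same order. The shares in each fit with 1 library left out are not given here.

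Sign changes arose only in values that were not called. Timp3 in wild-type stiffness became -0.021 and -0.011 without soft replicate 2 or stiff replicate 1 (highest 0.31 with 1 library left out), in knockout stiffness 0.16 and 0.097 without soft or stiff replicate 1 (lowest -0.16), and in the difference 0.053 without knockout soft replicate 1 (lowest -0.33). Mmp14 in wild-type stiffness became -0.033 without soft replicate 1 (highest 0.090), and Timp1 in knockout stiffness -0.0038 without soft replicate 1 (highest 0.32). The difference of Mmp14 became -0.0046 with DESeq2, -0.0040 with DESeq2 size factors, -0.014 with no filter, and -0.067, -0.022, -0.017 and -0.012 without wild-type soft replicate 2, wild-type stiff replicate 2, knockout soft replicate 2 or knockout stiff replicate 1 (highest 0.056). The causes were not tested.

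With a replicate block, 6 members were called for wild-type stiffness, 0 for knockout stiffness, 5 for the difference, 2 for the knockout on soft and 6 on stiff hydrogel, and 16, 0, 14, 6 and 24 related genes. Without the block, 19.3%, 0.0210%, 16.8%, 6.67% and 28.7% of all tested genes were called, in the same order. The shares with the block are not given here. The block ended the calls of Plau (adjusted p = 0.0528 and 0.0509). Deviations of same-numbered libraries correlated between -0.316 and 0.206 over pairs of groups, so the numbers were not taken to pair the libraries. Over all tested genes, called counts ranged over the alternatives from 1244 to 5859 for wild-type stiffness, 1 to 50 for knockout stiffness, 1040 to 4192 for the difference, 353 to 2624 for the knockout on soft and 2097 to 7299 on stiff hydrogel. Depth limits Lox, Plau and Timp3 most, with 5 to 70 counts a library.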
